A study of Caenorhabditis elegans with 2 samples.

Results

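The col- genes of Caenorhabditis elegans encode collagens, most of them building blocks of the cuticle, the layered outer coat that the worm replaces at each moult. They were chosen as all protein-coding genes of the Ensembl WBcel235 annotation whose symbol starts with col-, which gave 156 of the 19973 protein-coding genes on the nuclear chromosomes. Each gene was scored for a PHA-4 peak summit in its promoter, taken as the 1000 bp upstream of the gene start up to the start itself, and separately for a summit in a coding exon.

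Cuticle collagens are made by the epidermis, and their genes are switched on in waves that are repeated before every moult. The proteins are small and carry runs of Gly-X-Y triplets, in which glycine is followed by a pair of residues that are often proline, and these runs wind into the collagen triple helix. PHA-4 is the FoxA transcription factor that specifies the pharynx and also acts in the intestine, organs that do not secrete the body cuticle. Forkhead proteins such as PHA-4 are known for binding in promoters and enhancers.

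The peaks came from chromatin immunoprecipitation and sequencing of whole L4 larvae, aged 48 h, of strain RW12220, in which CRISPR had placed the tag TY1::EGFP::3xFLAG in the endogenous pha-4 gene (allele st12220). Worms had been synchronised as starved L1 larvae after bleaching, and both samples, biological replicates 1 and 2, belonged to the same group. The descriptions of the samples state that anti-GFP antibody was used, although their antibody entry reads pha-4. Whole animals were used, so a signal cannot be assigned to any tissue of the animal. With 1 group and no contrast between conditions, shares are described with their 95% Wilson intervals beside the share over all genes, and no difference was tested.

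The 4 thresholded lists differed in size: the joint list of both replicates held 2920 nuclear peaks, the stricter joint list 1555, the list of replicate 1 alone 2114 and that of replicate 2 alone 1643. Each peak of the stricter list was found among candidates ranked between the replicates. The joint list goes with a separate ranked list of both replicates, and a peak in it need not be called in each replicate. The replicates differed at the collagens. In coding exons, the list of replicate 2 held summits at 33 of the 156 col- genes, against 1.03% of all genes. That of replicate 1 held summits at 1, against 0.631% of all genes. This 1 gene was not called in replicate 2, and the overlap of the replicates over all genes was not counted. The main exon counts below are therefore given for each replicate. Signal values are those of the authors' peak caller and have a scale set per list, and the ranked lists differ in length, so neither signals nor ranks measure a change between replicates. Read depth is unknown.

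The sequences under the exon summits show what the summits lay on. Each line gives the coding strand, 5′ to 3′, for 50 bases to each side of a summit, with whole glycine codons of the annotated reading frame in capitals. The first 4 had exon signals among the 6 highest of the family in the joint list, the fifth is the col- gene whose exon summit was in the list of replicate 1, and the last was called in replicate 2 alone.
col-102 (chrIV:605556-605656, plus strand): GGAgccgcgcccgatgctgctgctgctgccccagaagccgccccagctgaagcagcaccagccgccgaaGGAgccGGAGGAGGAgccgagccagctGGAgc
col-40 (chrII:1105463-1105563, minus strand): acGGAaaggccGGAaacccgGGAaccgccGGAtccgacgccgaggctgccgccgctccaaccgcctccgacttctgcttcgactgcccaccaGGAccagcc
col-105 (chrIV:1358256-1358356, minus strand): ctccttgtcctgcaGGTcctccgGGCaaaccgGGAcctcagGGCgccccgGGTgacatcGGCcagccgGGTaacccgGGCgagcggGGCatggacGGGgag
col-107 (chrIV:1549279-1549379, plus strand): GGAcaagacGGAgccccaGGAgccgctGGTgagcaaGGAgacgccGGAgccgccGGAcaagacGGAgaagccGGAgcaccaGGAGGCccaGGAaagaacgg
col-133 (chrIV:14098703-14098803, minus strand): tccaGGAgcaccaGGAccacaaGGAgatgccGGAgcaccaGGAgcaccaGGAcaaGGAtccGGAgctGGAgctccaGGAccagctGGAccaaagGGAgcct
col-12 (chrV:10424133-10424233, minus strand): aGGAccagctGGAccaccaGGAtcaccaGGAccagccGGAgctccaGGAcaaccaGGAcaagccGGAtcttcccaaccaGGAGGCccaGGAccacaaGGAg
Coordinates and bases are those of WBcel235, the assembly also called ce11. In col-105, col-107, col-133 and col-12 a glycine codon returns at nearly every Gly-X-Y step, with 10 of 33 whole codons in col-105 and 12 of 33 in each of col-107, col-133 and col-12. The col-102 and col-40 windows held 6 and 5 glycine codons, and the summit base itself lay outside a Gly-X-Y run in both genes. The joint summits of col-50 and col-51, whose windows are not shown, also lay outside such a run. GC content of these windows was 73.3% for col-102 and col-105, 70.3% for col-40, 68.3% for col-107 and 63.4% for col-133 and col-12.

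Few promoters of col- genes held a summit. In the joint list 4 of 156 had one (2.56%, 95% Wilson interval 1.0 to 6.41), against 6.27% of all protein-coding genes. The 4 were col-63, col-71, col-72 and col-185, and their signals were 116.6, 75.2, 79.7 and 234.8 beside a list median of 103.2. The list of replicate 1 kept col-63 (67.2) and col-185 (172.3), or 1.28% against 4.85% of all genes. The list of replicate 2 held 0 of 156, a count whose Wilson interval reaches 2.4%, against 3.37% of all genes. The stricter list held the same 2 genes as replicate 1, 1.28% against 3.76%. The interval of the joint list thus includes the share over all genes, while those of replicate 1 (0.352 to 4.55) and replicate 2 end below it.

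The promoter summit of col-185 lay inside a transfer RNA gene. Its position, X:13511985, was 888 bp upstream of the col-185 start (WBGene00000758, minus strand) and within WBGene00014413, which spans 13511970 to 13512041. The 101 bases around it, on the col-185 strand with the bases of the transfer RNA gene in capitals, show how the summit sits on that gene:
col-185 promoter (chrX:13511935-13512035, minus strand): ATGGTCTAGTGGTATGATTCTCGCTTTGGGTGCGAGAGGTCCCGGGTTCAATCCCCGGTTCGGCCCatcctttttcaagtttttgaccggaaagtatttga

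The col-63 summit, 647 bp upstream of the start, lay within the body of the homeobox gene ceh-8. The summit of col-71, 244 bp upstream of the start on chromosome II, was also in the promoter of Y49F6B.2. The col-72 summit, 538 bp upstream on chromosome II, was in no other promoter and no other gene body. The peaks of col-71 and col-72 were in the joint list and in neither replicate's thresholded list.

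Just outside the 1000 bp limit, the joint list had a summit 1338 bp upstream of col-87 (signal 85.3) and another 1384 bp upstream of col-179 (21.6), the latter being a summit in the coding exon of its neighbour col-178. The list of replicate 1 also had a summit upstream of col-87, at 1310 bp (57.1). The replicate 2 list had a summit 1139 bp upstream of col-146 (47.0). Just inside it, the summits of col-185 and col-63 were the farthest from their starts.

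**Figure D1:**
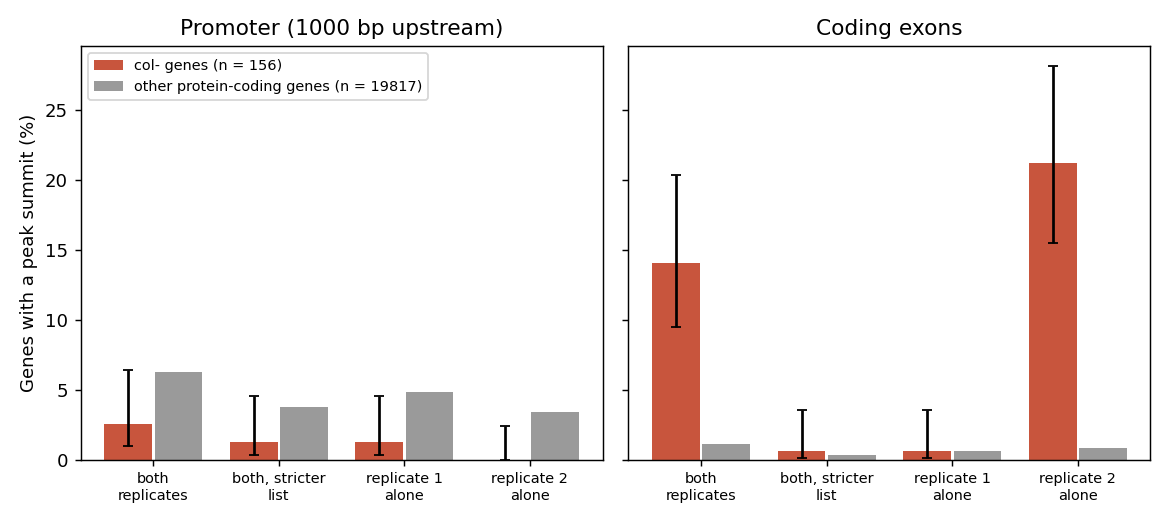
Share of genes with a peak summit in the promoter (left) and in coding exons (right), in percent, for the 156 col- genes (red, bars with 95% Wilson intervals) and the 19817 other protein-coding genes (grey), in the joint list, the stricter joint list and the list of each replicate. The red exon bars stand at 14.1% in the joint list and 21.2% in replicate 2 and at 0.641% in replicate 1 and the stricter list, while the red promoter bars lie below the grey ones in every list.

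In the joint list and in replicate 2, coding exons of col- genes held summits more often than their promoters did. In the joint list 22 of 156 genes had an exon summit (14.1%, 95% Wilson interval 9.5 to 20.4), against 1.22% of all protein-coding genes. In the list of replicate 2 it was 33 of 156 (21.2%, 15.5 to 28.2), against 1.03% of all genes. In the list of replicate 1 it was 1 of 156 (0.641%, 0.113 to 3.54), against 0.631%. The stricter list had the same 1 gene, col-133, or 0.641% against 0.335%. The list of replicate 1 thus gave the col- genes the background share, and that of replicate 2 did not.

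Of all genes with an exon summit in replicate 2, col- genes made up 16.1%, while they are 0.781% of protein-coding genes. Counted by summit, they held 38 of the 230 coding exon summits of replicate 2 (16.5%), 24 of the 264 of the joint list (9.09%) and 1 of the 134 of replicate 1 (0.746%).

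Most col- genes with an exon summit in the joint list were also called in replicate 2. The same overlap was not counted for all 243 genes with such a summit, so it is not read as particular to the family. Of the 22 genes, 19 were also in the replicate 2 list, col-133 was in that of replicate 1, and col-140 and col-178 were in neither. A further 14 genes were called in replicate 2 and not in the joint list, among them col-37, col-42, col-160, col-176 and col-185. At col-185, then, the promoter summit was in the list of replicate 1 and an exon summit, with a signal of 97.3, in that of replicate 2.

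The strongest exon peak was at col-102 (WBGene00000676, chromosome IV, 604444 to 605931), in the second and last coding exon, which spans 604744 to 605873. Its signal was 786.5 in the joint list, 782.0 in the replicate 2 list and 21.7 for the strongest exon candidate of replicate 1. The summit, 1162 bp downstream of the col-102 start, also lay in the 1000 bp promoter of the innexin gene inx-18. In the joint list 99.8% of nuclear peaks were weaker.

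The neighbours col-50 and col-51, which lie back to back on chromosome I, came next. The joint signals were 501.6 for col-50 and 388.0 for col-51, the replicate 2 signals 508.0 and 365.0, and the strongest exon candidates of replicate 1 23.4 and 21.3. Such a candidate is the strongest anywhere in the coding exons of the gene and need not lie at the called summit. In col-51 it lay 79 bp downstream of the start, and the replicate 2 summit lay 1098 bp downstream. Both genes were called in the joint list and in replicate 2 and not in replicate 1.

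col-40, on chromosome II, had a signal of 334.6 in the joint list and 337.5 in replicate 2, and no exon candidate in replicate 1. Its summit lay in the fourth and last coding exon. col-105 had 267.0, 246.7 and, in replicate 1, 31.5. col-107 had 196.3 and 208.7, and no exon candidate in replicate 1. col-2, a collagen gene known for its expression in the dauer larva, had 137.8 and 163.2 and no exon candidate in replicate 1, and col-44 had 114.7 and 123.8 and none in replicate 1. These 8 genes held the highest exon signals of the family in replicate 2, and 4 of them had no exon candidate in replicate 1.

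The rest of the 22 genes in the joint list had signals from 61.2 at col-183 to 124.2 at col-133, around the list median of 103.2. They included col-33 (111.1), col-147 (112.8), col-85 (103.1), col-35 (98.1), col-93 (98.0), col-159 (87.5), col-138 (86.8), col-81 (82.9), col-125 (78.3), col-108 (76.9) and col-178 (71.1). Of the genes in this range, col-133, col-140 and col-178 were not in the replicate 2 list, and col-133 alone was in that of replicate 1. In replicate 2 the called genes of this range had signals from 38.9 at col-183 to 96.7 at col-147.

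col-133 differed from the others in that its exon summit was called in replicate 1. Its signals were 124.2 in the joint list, 53.2 in the list of replicate 1 and 63.4 for its strongest candidate of replicate 2, which did not enter that replicate's thresholded list. The summit lay 603 bp downstream of the start (WBGene00000707, chromosome IV, 14098325 to 14099356), in the second of 2 coding exons and inside a Gly-X-Y run.

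Across the 33 genes called in replicate 2, exon signals there ran from 38.9 to 782.0 with a median of 73.8. In the ranked list of replicate 1, which holds all of its candidates, 17 of the 33 had an exon candidate, with signals from 4.80 to 41.6 and a median of 23.4, and 16 had none. Those candidates could lie anywhere in the coding exons and were not matched to the replicate 2 summits. The 33 were picked by their replicate 2 peaks, so their high signals there are fixed by that choice.

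**Figure D2:**
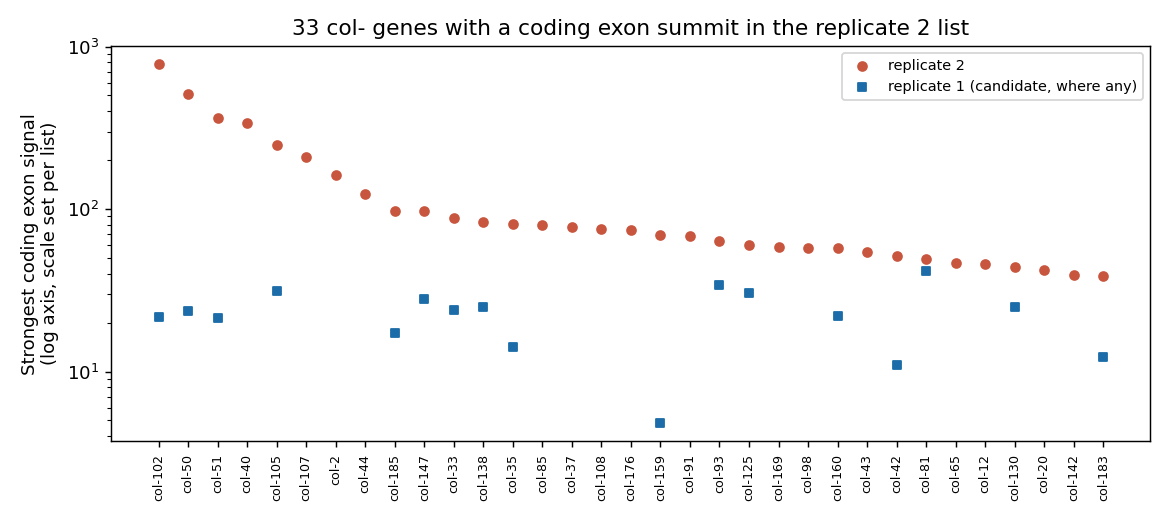
Strongest coding exon signal of each of the 33 col- genes called in replicate 2, on a log axis, in replicate 2 (red circles) and, where there was a candidate, in the ranked list of replicate 1 (blue squares). The scale is set per list, and a blue value need not lie at the same site as the red one. Red values run from 38.9 to 782.0 and blue ones from 4.80 to 41.6, and 16 genes have no blue value.

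Near the cutoff of the replicate 2 list, an irreproducible discovery rate (IDR) of 0.01 or a −log10 IDR of 2, exon candidates of col- genes lay on both sides. Just inside were col-142 (signal 39.1, −log10 IDR 2.13) and col-20 (42.2, 2.15). Just outside were col-140 (45.3, 1.94), col-17 (42.0, 1.91), col-119 (21.2, 1.87) and col-162 (42.1, 1.85). These members are named for their place at the threshold. Signals given are those of each gene's strongest exon candidate. By these, col-119 was below the 2 named just inside, and the signals of the other members overlap across the threshold. A second, weaker col-142 summit inside the cutoff had a signal of 7.49.

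Candidates of the ranked lists, which also hold the called peaks, were spread over many more members. In the ranked joint list 84 of 156 col- genes (53.8%) had an exon candidate, against 32.1% of all genes, and 71 (45.5%) a promoter candidate, against 47.6%. In the ranked list of replicate 2, 107 (68.6%) had an exon candidate, against 29.3%, and 38 (24.4%) a promoter candidate, against 36.7%. In that of replicate 1, 58 (37.2%) had an exon candidate, against 33.9%, and 74 (47.4%) a promoter candidate, against 52.4%. For replicate 1 both shares were near the background.

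Per length, the ranked list of replicate 2 held 1.1 candidate summits per kb of col- coding exon (95% Poisson interval 0.942 to 1.28) and 0.39 per kb of all coding exons. Replicate 1 held 0.528 (0.419 to 0.658) and 0.446. In col- promoters the density was 0.287 per kb in replicate 2 (0.208 to 0.385), against 0.503 in all promoters, and 0.71 in replicate 1 (0.583 to 0.856), against 0.838. Within the family, then, exons held the higher density in replicate 2 and promoters in replicate 1.

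**Figure D3:**
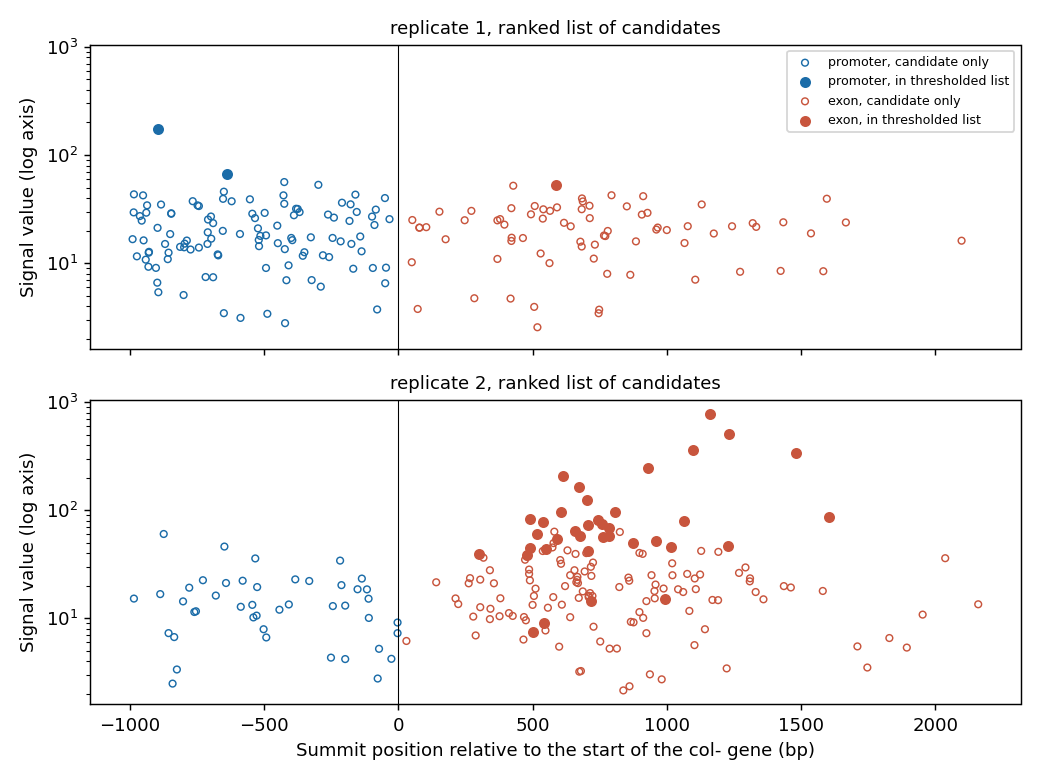
Candidate summits in promoters (blue) and coding exons (red) of the col- genes by distance from the gene start in bp and by signal on a log axis, for replicate 1 (top) and replicate 2 (bottom), with filled points for summits in the thresholded lists. The filled points of replicate 2 are all downstream of the start, and those of replicate 1 are 2 promoter summits and 1 exon summit. Not drawn are 14 summits farther than 2500 bp from the start, among them the called col-159 summit of replicate 2 at 3458 bp.

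Some members without a called promoter had candidates there. col-38 had one of the stronger ones, with a signal of 70.01 in the ranked joint list, 56.2 in replicate 1 and 22.96 in replicate 2, and col-111 had 71.3 in the ranked joint list, 43.3 in replicate 1 and none in replicate 2. Neither entered a thresholded list. col-12, a collagen gene whose promoter is used to drive expression in the epidermis, had promoter candidates at different sites in the replicates. They lay at -951 bp from the start in replicate 1 (42.4) and at -212 bp in replicate 2 (20.3). Its exon summit was in the replicate 2 list (46.1). col-19, the adult collagen gene activated by LIN-29 at the end of larval life, had a promoter candidate in replicate 1 (31.7) and none in replicate 2, and an exon candidate in replicate 2 (21.6) and none in replicate 1. col-10 and col-120 had no candidate in either window in any ranked list, and in all 32 of the 156 members had none. The share of all genes without any candidate was not counted, so nothing is read from the 32.

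The members' coding sequence was unlike that of most genes in base composition, a property that the choice of members did not use. Coding GC content had a median of 55.1% in col- genes (range 43.4 to 62.6) and 42.5% in other genes. The highest GC content of any 201 bp window centred on a coding base had a median of 63.9% in col- genes and 47.3% in the others. It exceeded 65% in 68 of 156 col- genes (43.6%) and in 76 of 19817 others (0.384%). Promoter GC content was alike, with medians of 34.9% and 34.3%.

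Replicate 2 exon signals went with this measure and replicate 1 exon signals did not. Across the 107 col- genes with an exon candidate in replicate 2, the highest window GC and the signal had a Spearman rho of 0.70 and a Pearson r of 0.707 on the log2 scale of the signal. Across the 58 with one in replicate 1 rho was -0.0105 and r -0.0039. These values describe members that share a library and a common sequence repeat. The 6 members with a window above 70% GC, which are col-102, col-105, col-50, col-40, col-107 and col-51, were also the 6 with the highest exon signals in replicate 2. Of the 33 genes called in replicate 2, 31 had a window above 65% GC.

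**Figure D4:**
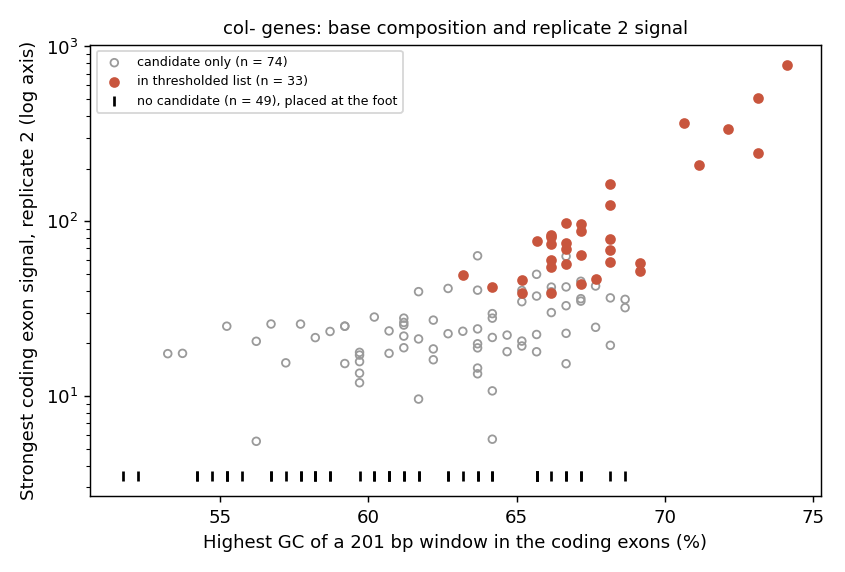
Highest GC content of a 201 bp window in the coding exons, in percent, and strongest exon signal in replicate 2 on a log axis, for the 107 col- genes with a candidate, and tick marks at the foot for the 49 without. Genes in the thresholded list (red) lie at 63.2% GC or more, and the 6 above 70% have the highest signals.

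Genes outside the family with the same highest window GC were then set beside the col- genes. Above 65%, 31 of 68 col- genes (45.6%, 95% Wilson interval 34.3 to 57.3) and 33 of 76 other genes (43.4%, 32.9 to 54.6) had an exon summit in that list. From 60 to 65% it was 2 of 50 (4.0%) and 41 of 400 (10.2%), and from 55 to 60% 0 of 31 and 40 of 1665 (2.4%). In the top range the 2 intervals overlap over most of their length. In the joint list the shares above 65% were 20 of 68 (29.4%) and 20 of 76 (26.3%). In replicate 1 they were 0 of 68 and 0 of 76. In the stricter list they were 0 of 68 (Wilson interval up to 5.35%) and 6 of 76 (7.89%, 3.67 to 16.2). By the mean coding GC, the replicate 2 shares from 50 to 55% were 2 of 51 col- genes (3.92%) and 50 of 1400 others (3.57%). From 55 to 60% they were 22 of 65 (33.8%, 23.5 to 46.0) and 20 of 191 (10.5%, 6.88 to 15.6), and above 60% 9 of 16 (56.2%, 33.2 to 76.9) and 11 of 30 (36.7%, 21.9 to 54.5). These ranges were chosen after the exon counts had been seen.

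**Figure D5:**
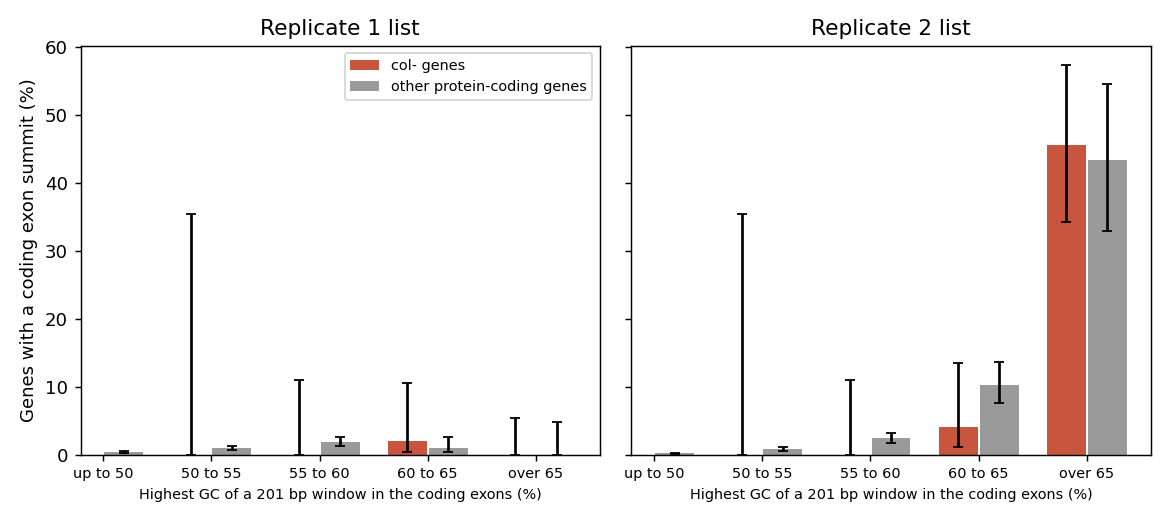
Share of genes with a coding exon summit, in percent with 95% Wilson intervals, by the highest GC content of a 201 bp window in their coding exons, for col- genes (red) and other protein-coding genes (grey) in the lists of replicate 1 and replicate 2. Above 65% GC the replicate 2 shares are 45.6% and 43.4% and the replicate 1 shares are both 0, and no col- gene falls in the range up to 50%.

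The label of the family was checked against its translated reading frames. In 153 of 156 members at least 30% of the residues lay in runs of 4 or more Gly-X-Y triplets, with a median of 50.2%, and 49 of 19817 other genes reached that share. The 3 members below it were col-17, col-87 and col-163, and in the annotated frame of col-17 no run was found. col-99, which encodes a transmembrane collagen rather than a cuticle component, had 53.9%. It had no summit in any thresholded list, a promoter candidate in replicate 1 (17.9) and an exon candidate in replicate 2 (20.6).

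The strongest joint exon summits, at col-102, col-50, col-51 and col-40, lay outside Gly-X-Y runs, which hold a median of 50.2% of the members' residues. Of the called exon summits, 18 of 24 in the joint list and 30 of 38 in replicate 2 lay in such runs. So did the 1 in replicate 1. Of all exon candidates in the ranked lists, 116 of 167 in replicate 2 and 42 of 80 in replicate 1 did. Around the 38 replicate 2 summits, the GC content of 201 bp ran from 57.2 to 72.6% with a median of 64.7%. The 33 called members and the other 123 had the same median coding length, 912 bp, while the highest window GC had medians of 67.2% and 62.2%.

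Collagen genes have close copies, and how reads were placed among them was not given. Of the 24 joint exon summits, 18 had no 50-base stretch within 100 bp that occurs elsewhere in the nuclear genome, and the lowest share of unique stretches was 52.6%, at col-178. In replicate 2 it was 27 of 38, with a lowest share of 40.1%. Stretches that recur elsewhere also lay at col-102, col-125, col-159 and col-93 and, in replicate 2, at col-12, col-43, col-65, col-142, col-160 and col-169, and those signals are less certain to belong to that copy. Of the family, 101 members had no other member within 20 kb.

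Motif matches were also counted, on both strands. The forkhead sequences TGTTTAC and TGTTTGC each lay within 50 bp of 0 of the 24 joint exon summits, a count that allows up to 13.8% by the Wilson interval, and of 2.05% and 3.42% of all nuclear summits in that list. In replicate 2 each lay near 0 of 38 exon summits, which allows up to 9.18%, and near 1.7% and 2.5% of all nuclear summits. They lay in none of the 4 promoter summit windows either. The sequences AGATAA and TATAAA also lay near 0 of the 24 and 0 of the 38 exon summits. Of all nuclear summits, 3.87% and 5.92% had them in the joint list and 2.56% and 3.47% in replicate 2. GAGAG lay near 4 of 24 and 10 of 38 exon summits, against 33.2% and 43.5% of all nuclear summits. The 0 counts were thus not particular to the forkhead sequences. In the 1000 bp promoters, TGTTTAC was found in 16.0% of col- genes and 13.5% of all genes, TGTTTGC in 14.1% and 18.9%, the GATA-type sequence AGATAA in 58.3% and 50.1%, GAGAG in 117 of 156 col- genes against 74.0% of all genes, and TATAAA in 83.3% and 75.5%. No match says only that these letters are not in the window.

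Genes around the collagens were read from lists that had been chosen with earlier results known. Their counts stand beside the shares over all genes given above, which for promoter summits were 6.27% in the joint list, 3.76% in the stricter list, 4.85% in replicate 1 and 3.37% in replicate 2. With 5 to 20 genes a list, 0 to 4 called genes give shares of low precision, and nothing particular to a list is read from them. Of 20 cuticle collagen genes with other names, such as the dpy, rol, sqt and bli genes of body shape, 0 had a promoter summit in any of the 4 lists. The 1 exon summit among them was at sqt-3 in replicate 2, with a signal of 195.6 and a highest window GC of 69.2%. Of 5 collagens counted apart from the cuticle, including the basement membrane genes emb-9 and let-2 and the member col-99, 0 had a summit in either window. Of 19 genes of collagen processing and cross-linking, 2 had a promoter summit in the joint list: pdi-2 (165.8), a protein disulphide isomerase that forms part of collagen prolyl hydroxylases, and pdi-1 (110.3). Both were in the replicate 2 list (72.7 and 44.2), and pdi-2 was in that of replicate 1 (85.8). pdi-2 also had an exon summit in the joint list (83.1) and in neither replicate's list. Over all genes, 1.22% had an exon summit in the joint list.

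Among 17 other cuticle proteins the joint list had a promoter summit at cut-5 (85.7) and an exon summit at cut-2 (144.3), a cuticlin gene with a window of 68.7% GC. The cut-5 summit was also in the list of replicate 1 (61.7), and that of cut-2 in the list of replicate 2 (111.4). Among 19 regulators of the epidermis and of moulting, 4 had a promoter summit in the joint list: myrf-1 (213.9), which acts in moulting and neuronal rewiring, the heterochronic genes lin-14 (128.0) and mab-10 (74.5), and let-413 (82.4), which acts in epithelial polarity. myrf-1 and lin-14 were in the lists of both replicates, with 101.9 and 60.3 in replicate 1 and 125.5 and 66.5 in replicate 2. nhr-23, elt-1, elt-3, blmp-1 and lin-29 had none. The period homologue lin-42 had exon summits in 2 lists, the stricter one (56.0) and replicate 2 (41.2).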

How the data were processed

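Both replicates of anti-GFP chromatin immunoprecipitation from whole L4 larvae were used. The authors deposited ranked and thresholded peak lists on ce11, with filtered alignments and 1 control file as the inputs, per the notes deposited with them. The aligner, peak caller and settings are not given in the sources used here, and control reads were not analysed here. The deposited signal is the caller's own value per peak. The deposited ranked lists also give the −log10 of the IDR, and each peak of the thresholded lists was found there at 2 or more. The 27 mitochondrial peaks of the joint list were left out. Replicate values came from each replicate's own lists.

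From these files, summits (start plus the deposited offset) were counted in promoters and in merged coding exons of Ensembl release 115 genes with Python 3.11.15, numpy 2.4.6, pandas 2.3.3 and scipy 1.17.1. Sequence came from the RefSeq copy of the assembly, and no peak extended past a chromosome end. Translation used Biopython 1.88. Counting was tested on simulated summits. Intervals are 95% Wilson or exact Poisson and cover counting error over genes or summits only.

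Members, gene lists and tests were chosen with earlier results of these data known. The rule for names gave 45 members and kept the 30 with the strongest signals, col-10, col-12, col-19, col-99 and col-120 were named whatever their values, and others were named after their values were seen. Alternatives were other lists, windows and thresholds.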

Additional observations from a re-analysis of the deposited data

How the results depend on the processing

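The promoter share of col- genes was 2.56%. It was 0.641% with 500 bp promoters, 45.5% with all candidates of the ranked list, and 0.0 to 1.28% when a replicate was left out, the lower value without replicate 1. Under the 8 other alternatives it was 1.28 to 5.77%, within its interval. Shares over all genes are not given for promoter windows of other lengths, so those values cannot be set beside the share for 1000 bp. The exon share was 14.1% and moved to 0.641% in the stricter list, 7.05% in the stronger part of the list, 53.8% with all ranked candidates, and 0.641 to 21.2% when a replicate was left out. It is 0.641% without replicate 2 and 21.2% without replicate 1, and the cause was not tested. With peak overlap of at least 1 bp, clustered copies counted once, small noncoding RNA neighbours left out, all exon bases or summits in any promoter left out, the exon share was 10.9 to 16.0%, and without genes that have a repeated stretch at the summit, an alternative added after seeing the data, 11.3%. Candidate summits per kb in the ranked joint list were 0.703 in promoters and 0.832 in coding exons, against 0.781 and 0.437 over all genes. With a −log10 IDR of at least 1, where fewer candidates remain, the col- values were 0.0391 and 0.244, against 0.108 and 0.0341 over all genes. With a replicate left out the col- values were 0.287 to 0.71 and 0.528 to 1.1. No paired analysis was possible because both replicates belong to 1 group. Depth is unknown, so a missing summit says only that no peak was called.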

Other observations

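Genes outside the col- class whose proteins carry Gly-X-Y runs over at least 30% of their length numbered 49. None of them had a promoter summit in any of the 4 thresholded lists, and the Wilson interval reaches 7.27%, which includes the 3.41 to 6.32% of genes without such runs that had one. In their coding exons, replicate 2 had summits at 5 (10.2%, 95% Wilson interval 4.44 to 21.8), against 0.845% of genes without such runs: F55A12.18 with a signal of 211.0, ram-2 with 206.4, sqt-3 with 195.6, grl-23 with 128.8 and grsp-1 with 80.8. Their highest window GC ran from 65.7 to 71.6%. The list of replicate 1 had 0 of 49, and the joint list had F55A12.18 (175.7), ram-2 (203.9) and grl-23 (115.9). F55A12.18 was also in the stricter joint list.

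The col- genes lie on all 6 nuclear chromosomes, and exon summits of replicate 2 were found on each of them. Chromosome IV had 9 of 41 members called, V 8 of 31, X 5 of 27, I 4 of 21, II 4 of 24 and III 3 of 12. Shares over all genes were not counted by chromosome, so no difference between chromosomes is read from these counts. Median highest window GC of the members was 66.9% on III, 65.7% on V, 64.2% on X, 63.7% on IV, 62.4% on II and 59.7% on I.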
